A study of Rattus norvegicus with 18 samples.

Results

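Mt-cyb, Mt-co1, Mt-co2, Mt-co3, Mt-atp6 and Mt-atp8 are the genes of the rat mitochondrial genome that encode the cytochrome subunits of respiratory complexes III and IV and the subunits of ATP synthase. The choice was by function, with earlier results of these data known. The genes were taken by their Ensembl identifiers, which are ENSRNOG00000031766, ENSRNOG00000034234, ENSRNOG00000030371, ENSRNOG00000030700, ENSRNOG00000031979 and ENSRNOG00000033299 in that order. They were 6 of the 37262 genes in the deposited tables. RNA depleted of ribosomal RNA was sequenced from rat hearts in 18 libraries of 3 groups with 6 libraries each. The groups were the spontaneously hypertensive strain SHR treated with QDG, SHR treated with NS, and the normotensive Wistar-Kyoto strain WKY. The labels spell out neither NS nor QDG, give no age, and leave it unclear whether WKY rats also received NS. SHR given NS are called SHR from here on, and if WKY rats had no NS, then strain and NS cannot be told apart in comparisons with WKY. The labels do not state that libraries came from separate animals, and in that case p-values measure only the spread between these libraries, which may be technical.

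The respiratory chain passes electrons through complex III to cytochrome c and on to complex IV, cytochrome c oxidase, which reduces oxygen to water. Protons pumped on the way flow back through ATP synthase and drive the making of ATP, on which the beating heart depends. The mitochondrial genome encodes a few core subunits of these complexes, and the nucleus encodes the others. In mammals the mitochondrial genes are transcribed as long precursors that are cut into single messengers, and Mt-atp8 and Mt-atp6 stay on 1 shared messenger, where their reading frames overlap.

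Levels are given in FPKM, fragment counts scaled by gene length and library size, which is meant to let genes of different length be set side by side. How well this holds for short genes was not tested. The unit was inferred from the values, since the tables do not name it, and the absolute depth is unknown. Depth relative to WKY replicate 1 ran from 0.879 to 1.09 over the libraries, and summed FPKM ran from 598626 to 676288. WKY replicate 5 had the lowest relative depth and the highest summed FPKM, and was the lowest WKY library in 6 of the 6 genes. WKY replicate 1 was the second lowest in 6 of the 6 genes. SHR replicate 5 was likewise the lowest SHR library in 6 of the 6 genes. Log2 fold changes against WKY are therefore also given without WKY replicates 1 and 5, an alternative chosen after their values were seen. Leaving out the lowest libraries of WKY alone raises its mean and narrows its spread by itself. A lower adjusted p in those fits, or in those without WKY replicate 5, is therefore no added support. SHR replicate 5 was left out on its own only. The heart label could not be checked against muscle markers, because the tables pair no identifier with a gene name, and the nuclear partners of these subunits were not examined for the same reason.

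Together the 6 genes held 7.83% ± 1.07 of a library's summed FPKM in QDG-treated SHR, 9.18% ± 1.04 in SHR and 6.21% ± 1.91 in WKY (SD, n = 6 each). In single libraries the combined share ran from 6.55% to 9.23% in QDG-treated SHR, from 7.42% to 10.2% in SHR and from 2.94% to 7.88% in WKY. Mt-co1 alone made up 50.0% ± 1.44 of the 6 genes' sum in QDG-treated SHR, 50.9% ± 0.845 in SHR and 51.9% ± 2.41 in WKY (SD, n = 6 each). These genes were among the most abundant of the heart, and Mt-co1 ranked between 3 and 6 among all genes over the 18 libraries. Mt-atp6 and Mt-atp8 were the least abundant of the 6, with ranks from 28 to 117 for Mt-atp6 and from 24 to 82 for Mt-atp8.

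**Figure D1:**
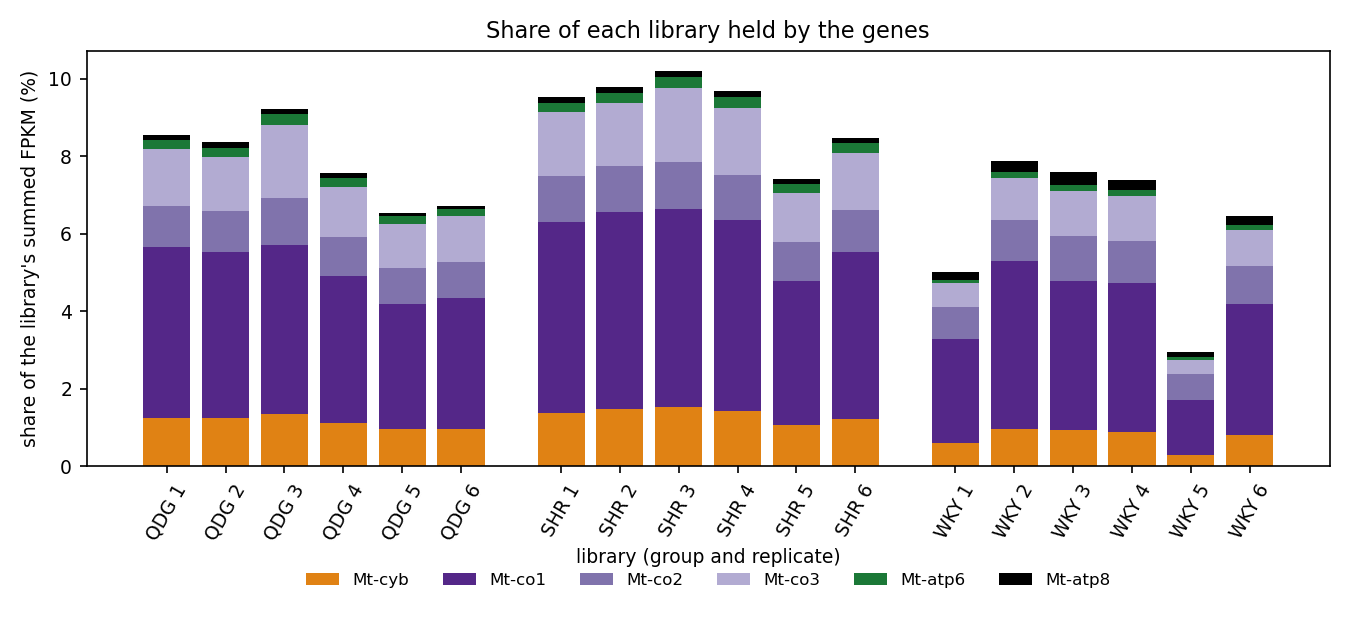
Stacked bars give the share of each library's summed FPKM (%, vertical axis) held by the 6 genes, for 6 libraries each of QDG-treated SHR (QDG), SHR and WKY. The bars reach 6.55% to 9.23% in QDG-treated SHR and 7.42% to 10.2% in SHR, and WKY replicate 5 is the lowest at 2.94%.

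In the order of levels, Mt-co1 stood first in each group and did not overlap with the next gene. In QDG-treated SHR and in SHR it was followed by Mt-co3, Mt-cyb, Mt-co2, Mt-atp6 and Mt-atp8. The ranges of Mt-co3 and Mt-cyb overlapped there, as did those of Mt-cyb and Mt-co2, although within a library the order held in 6 of 6 libraries of both groups. In WKY Mt-co1 was followed by Mt-co2, Mt-co3, Mt-cyb, Mt-atp8 and Mt-atp6, with overlapping ranges between neighbours from Mt-co2 down, and Mt-co2 was above Mt-co3 in 4 of 6 libraries. In FPKM the ATP synthase genes changed places between the strains: Mt-atp6 was above Mt-atp8 in 6 of 6 libraries of QDG-treated SHR and 6 of 6 of SHR, and below it in 6 of 6 libraries of WKY. How reads from the stretch they share were assigned is not stated in the sources used here. The levels, order and fold changes of this pair are uncertain to that extent, here and below.

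The first comparison was that of the hypertensive with the normotensive strain. Of the 6 genes, 4 rose in SHR (Mt-cyb, Mt-co1, Mt-co3 and Mt-atp6), Mt-atp8 fell, and Mt-co2 did not pass the test. The test was limma on log2(FPKM + 1) over the 18 libraries and 17397 genes, with Benjamini-Hochberg adjustment and a threshold of 0.05. It called 24.8% of all genes tested, 12.2% higher and 12.6% lower in SHR, so calls were common among genes at large. The median log2 fold change was 0.75 over the 6 genes and -0.01 over all genes tested. In RNA from whole tissue, fewer cells of a type and less RNA per cell cannot be told apart. FPKM of SHR and WKY did not overlap for 3 of the 6 genes (Mt-cyb, Mt-co3 and Mt-atp6, all higher in SHR), against 12.5% of all genes tested (6.41% higher and 6.09% lower).

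Mt-cyb encodes cytochrome b, the subunit of complex III that carries electrons between its quinone sites. Its lowest, median and highest levels were 6622, 8681 and 9500.0 FPKM in SHR, against 2044, 5346 and 5856 FPKM in WKY. Each SHR library lay above each WKY library. The log2 fold change was 0.91 (SE 0.20; adjusted p = 0.00269 by limma), or 1.88-fold. It was 0.69 without WKY replicate 5 (adjusted p = 0.000418 by limma) and 0.58 without WKY replicates 1 and 5 (adjusted p = 0.000781 by limma), and the adjusted p ran from 0.000418 to 0.0120 over 32 alternatives.

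Mt-co1 encodes the catalytic subunit of complex IV, where oxygen is reduced. In SHR the lowest, median and highest levels were 23178, 30527 and 31453 FPKM, against 9549, 22521.5 and 25955 FPKM in WKY. The groups overlapped, since the lowest SHR library lay below the 3 highest WKY libraries. The log2 fold change was 0.58 (SE 0.18; adjusted p = 0.0267 by limma). This call was lost in 8 of 32 alternatives, over which the adjusted p ran from 0.00480 to 0.649. Among single libraries it was lost without WKY replicate 1 (log2 fold change 0.54, limma adjusted p = 0.0539), SHR replicate 2 (0.56, adjusted p = 0.0519), SHR replicate 3 (0.56, adjusted p = 0.0533) or SHR replicate 4 (0.55, adjusted p = 0.0528). Without WKY replicate 5 the log2 fold change was 0.38 (limma adjusted p = 0.0211), and without WKY replicates 1 and 5 it was 0.28 (limma adjusted p = 0.0567).

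Mt-co2 encodes the complex IV subunit that takes electrons from cytochrome c. Its lowest, median and highest levels were 6202, 7224 and 7609 FPKM in SHR, against 4504, 6286 and 7211 FPKM in WKY. The groups overlapped, and the log2 fold change was 0.23 (SE 0.10; adjusted p = 0.109 by limma). Its interval at 95% confidence ran from 0.02 to 0.45 on the log2 scale. The Mt-co2 log2 fold change was 0.15 without WKY replicate 5 (limma adjusted p = 0.239), 0.08 without WKY replicates 1 and 5 (limma adjusted p = 0.515), 0.16 with sample weights (limma adjusted p = 0.170) and 0.04 after quantile normalization (limma adjusted p = 0.869). Over 32 alternatives the adjusted p ran from 0.0256 to 0.869. It was under 0.05 only with a replicate block, which matches libraries of the same number, and the numbers were not taken as pairs.

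Mt-co3 encodes the third core subunit of complex IV, which holds no redox centre. In SHR its lowest, median and highest levels were 7988, 9947 and 11639.7 FPKM, against 2476, 6109 and 7209.6 FPKM in WKY. The groups did not overlap. The log2 fold change was 0.94 (SE 0.22; adjusted p = 0.00358 by limma), or 1.92-fold. It was 0.73 without WKY replicate 5 (limma adjusted p = 0.00230) and 0.58 without WKY replicates 1 and 5 (limma adjusted p = 0.00402), and the adjusted p ran from 0.000605 to 0.0270 over 32 alternatives.

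Mt-atp6 encodes subunit a of ATP synthase, which forms part of the path of protons through the membrane. Levels ran from 1422 through a median of 1575 to 1904 FPKM in SHR, against 438, 891 and 1052 FPKM in WKY. The groups did not overlap, and of the 6 genes this one had the largest log2 fold change, at 1.08 (SE 0.18; adjusted p = 0.000202 by limma), or 2.11-fold. Of all genes tested, 0.644% had a log2 fold change at least as high. It was 0.77 without WKY replicates 1 and 5 (limma adjusted p = 9.9e-05), and the adjusted p ran from 4.2e-05 to 0.00134 over 32 alternatives.

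Mt-atp8 encodes a small subunit of the membrane part of ATP synthase. Levels ran from 799 through a median of 892 to 1007 FPKM in SHR, against 867, 1553 and 2054 FPKM in WKY. WKY replicate 5 was the WKY library that lay inside the SHR range, and the other 5 lay above it. The log2 fold change was -0.68 (SE 0.17; adjusted p = 0.00560 by limma), so that SHR stood at 0.624 times the level of WKY, and 1.94% of the genes tested had a value at least as low. Without WKY replicate 5 it was -0.83 (limma adjusted p = 0.000210) and without WKY replicates 1 and 5 it was -0.93 (limma adjusted p = 6.5e-05), and the adjusted p ran from 6.5e-05 to 0.0336 over 32 alternatives.

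**Figure D2:**
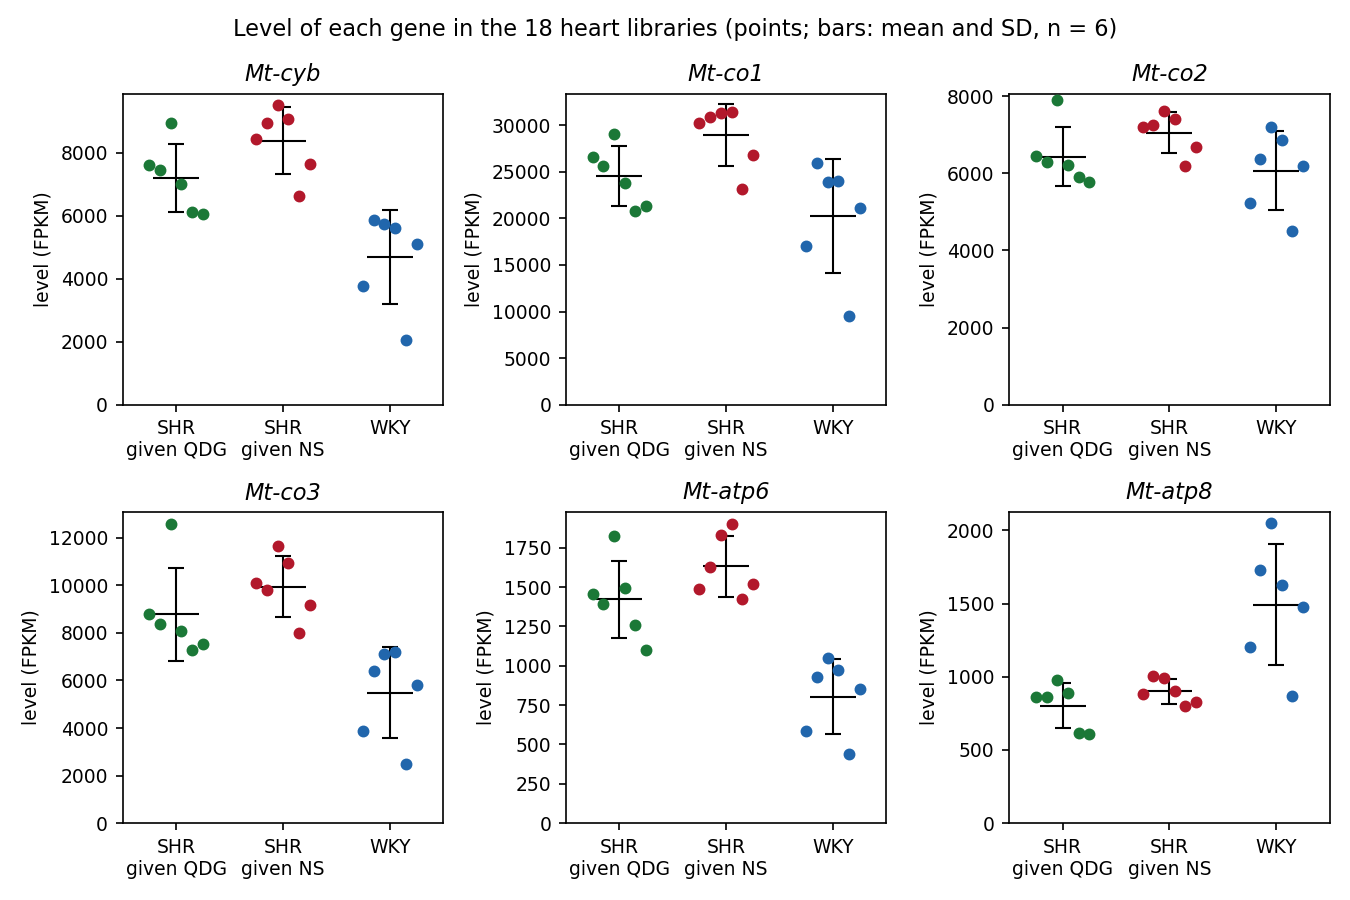
Points give the level of each gene (FPKM, vertical axis) in the 6 libraries of QDG-treated SHR, SHR and WKY, with bars for the mean and SD. SHR and WKY do not overlap for Mt-cyb, Mt-co3 and Mt-atp6, and Mt-atp8 is the gene of the 6 whose mean in SHR (902 FPKM) is below its mean in WKY (1493 FPKM).

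Shares of a library's summed FPKM put the same genes on a scale that does not use the authors' library size. Differences in share were tested by a two-sided exact permutation test for every gene tested, adjusted over all of them. For SHR against WKY this test called 18.5% of all genes, 10.3% higher and 8.17% lower, and 3 of the 6 genes. Mt-cyb held 1.35% ± 0.176 in SHR and 0.751% ± 0.258 in WKY, Mt-co3 held 1.60% ± 0.208 in SHR and 0.878% ± 0.322 in WKY, and Mt-atp6 held 0.263% ± 0.0297 in SHR and 0.129% ± 0.0414 in WKY (SD, n = 6 each). For each of these 3 genes the exact permutation p was 0.00216, the smallest that 6 against 6 libraries can give, and the adjusted p was 0.0194. Without WKY replicates 1 and 5 the exact permutation adjusted p was 0.0376 for Mt-atp6 and 0.0567 for Mt-cyb and for Mt-co3. Over 17 alternatives the adjusted p ran from 0.0102 to 0.114 for each of the 3 genes. The highest was that of the replicate block, whose smallest possible p is 0.0312. By share 0 of all genes passed with it in any comparison, so it says nothing of stability.

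Mt-co1 held 4.68% ± 0.550 in SHR and 3.25% ± 1.05 in WKY (SD, n = 6 per group; p = 0.0152 by exact permutation, adjusted p = 0.0680). It passed without WKY replicate 2 (exact permutation adjusted p = 0.0465) or SHR replicate 5 (adjusted p = 0.0431), within a range from 0.0431 to 0.402 over 17 alternatives. Mt-co2 held 1.14% ± 0.0889 in SHR and 0.968% ± 0.187 in WKY (SD, n = 6 per group; p = 0.0606 by exact permutation, adjusted p = 0.173). Mt-atp8 held 0.146% ± 0.0150 in SHR and 0.239% ± 0.0722 in WKY (SD, n = 6 per group; p = 0.0173 by exact permutation, adjusted p = 0.0744). It passed without WKY replicate 5 (exact permutation adjusted p = 0.0226), within a range from 0.0102 to 0.171 over 17 alternatives, the highest from the replicate block. The share test thus called 3 genes that limma called too, and left Mt-co1 and Mt-atp8 short of the threshold.

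Ratios between a pair of these genes in the same library do not depend on how libraries are scaled to each other. The 6 genes were taken in their order along the mitochondrial genome and each was paired with the next of the 6. This gave 5 ratios in 3 comparisons, with exact permutation tests adjusted over the 15 tests. The ratio of Mt-atp6 to Mt-atp8 was 1.62, 1.81 and 2.11 (lowest, median and highest) in SHR, against 0.484, 0.525 and 0.598 in WKY. The strains did not overlap, and WKY replicate 5, at 0.505, lay within the range of the other WKY libraries. The mean log2 ratio was 0.85 ± 0.13 in SHR and -0.90 ± 0.12 in WKY (SD, n = 6 each), a difference of 1.76 (p = 0.00216 by exact permutation, adjusted p = 0.00812), or 3.38-fold. Leaving out 1 library at a time gave differences from 1.71 to 1.79, and the adjusted p ran from 0.00361 to 0.0670 over 15 alternatives. The 0.0670 is that of the replicate block, where p was 0.0312, the smallest that 6 pairs can give. The other alternatives reached an exact permutation adjusted p of 0.0119 at most.

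The ratio of Mt-atp8 to Mt-co2 was lower in SHR, with lowest, median and highest values of 0.122, 0.127 and 0.139 in SHR, against 0.193, 0.238 and 0.285 in WKY. The strains did not overlap, and the mean log2 difference was -0.91 (p = 0.00216 by exact permutation, adjusted p = 0.00812). The ratio of Mt-co2 to Mt-co1 was also lower, at 0.245 ± 0.0123 in SHR and 0.318 ± 0.0785 in WKY (SD, n = 6 each), a log2 difference of -0.35 (p = 0.00649 by exact permutation, adjusted p = 0.0195). It was 0.472 in WKY replicate 5, and the log2 difference was -0.23 without that library. Without SHR replicate 1, 2, 3 or 4 the exact permutation adjusted p was 0.0505, within a range from 0.00361 to 0.0670 over 15 alternatives. The highest was again that of the replicate block.

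The other ratios did not pass the test. Mt-co3 over Mt-atp6 was 6.09 ± 0.421 in SHR and 6.69 ± 0.574 in WKY (SD, n = 6 each), a log2 difference of -0.13 (p = 0.0801 by exact permutation, adjusted p = 0.150). It passed without WKY replicate 5 (-0.18, exact permutation adjusted p = 0.0216), within a range from 0.0216 to 0.286 over 15 alternatives. Mt-cyb over Mt-co3 was 0.842 ± 0.0339 in SHR and 0.862 ± 0.0729 in WKY (SD, n = 6 each), a log2 difference of -0.03 (p = 0.615 by exact permutation, adjusted p = 0.768). The sources used here do not state how reads from the stretch shared by Mt-atp8 and Mt-atp6, or from nuclear copies of mitochondrial genes, were assigned, nor the strand setting. The values of the overlapping pair are uncertain to that extent, and the part of counting in their ratio was not tested.

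**Figure D3:**
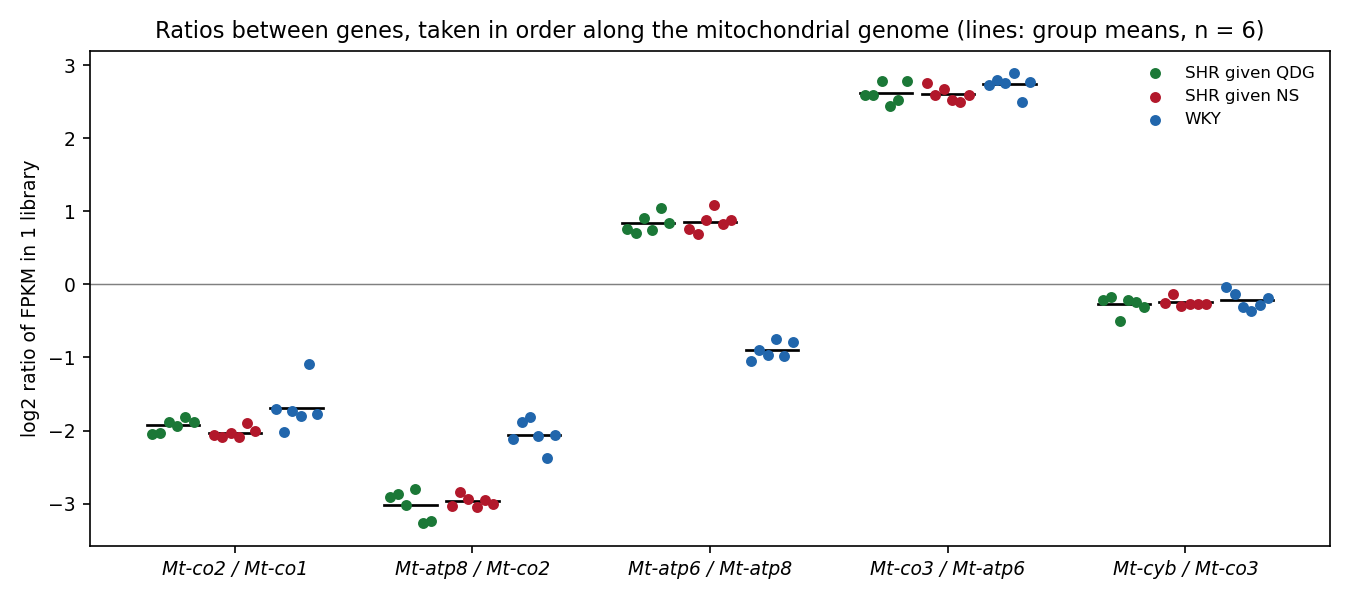
Points give the log2 ratio of FPKM between a pair of genes in 1 library (vertical axis) for 5 ratios in QDG-treated SHR, SHR and WKY, with lines for the group means. Mt-atp6 over Mt-atp8 lies above 0 in the 6 libraries of QDG-treated SHR and the 6 of SHR, and below 0 in the 6 of WKY.

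**Figure D4:**
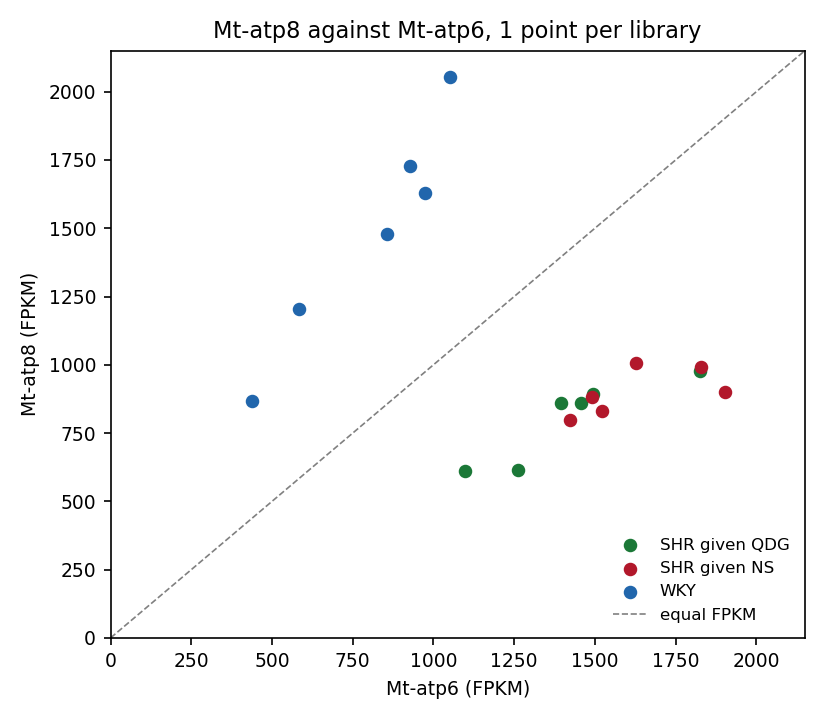
Each point is 1 library, plotted by its levels of Mt-atp6 and Mt-atp8 (FPKM, 1 gene on each axis), with the line of equal levels. QDG-treated SHR and SHR have ratios of Mt-atp6 to Mt-atp8 from 1.62 to 2.11 and lie on the Mt-atp6 side of the line, and the WKY libraries have ratios from 0.484 to 0.598 and lie on the Mt-atp8 side.

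The second comparison was that of QDG-treated SHR with SHR. None of the 6 genes passed limma, with adjusted p from 0.692 to 0.816. In this fit over 18 libraries, whose error also draws on WKY, 0 of 6 reached an unadjusted p under 0.05. Of all genes tested limma called 0.293% here, 0.207% higher and 0.0862% lower, so few calls were to be had. The levels of treated and SHR libraries overlapped for each of the 6 genes, and did not overlap for 1.15% of all genes tested (0.833% higher and 0.316% lower). Log2 fold changes of the 6 genes ran from -0.24 to -0.14, with a median of -0.20, against 0.02 over all genes tested. The 6 genes come from the same libraries and move together between them, so 6 means on the same side are not 6 separate observations. After quantile normalization the log2 fold changes were 0 for Mt-co1, -0.03 for Mt-co2, -0.09 for Mt-cyb and -0.11 for Mt-co3. Without QDG replicate 6 they were -0.14 for Mt-atp6 and -0.11 for Mt-atp8, without QDG replicate 5 that of Mt-atp8 was -0.11, and without QDG replicate 3 that of Mt-co3 was -0.30. None of these passed limma either.

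Mt-co1 stood at 20806, 24720.5 and 29068 FPKM (lowest, median and highest) in QDG-treated SHR, against 23178, 30527 and 31453 FPKM in SHR. The log2 fold change was -0.24 (SE 0.18; adjusted p = 0.700 by limma). Its interval at 95% confidence, as a fold of FPKM + 1, ran from 0.647 to 1.11. The Mt-co1 ranges of QDG-treated SHR and SHR overlapped, and the treated median lay below 5 of the 6 SHR libraries.

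Mt-cyb stood at 6055, 7208 and 8923 FPKM in QDG-treated SHR, against 6622, 8681 and 9500.0 FPKM in SHR, with an interval of the fold from 0.638 to 1.15. Mt-co2 stood at 5778, 6257 and 7902 FPKM in QDG-treated SHR, against 6202, 7224 and 7609 FPKM in SHR, with an interval from 0.782 to 1.05. Mt-co3 stood at 7275, 8228 and 12576 FPKM in QDG-treated SHR, against 7988, 9947 and 11639.7 FPKM in SHR, with an interval from 0.636 to 1.20. QDG replicate 3 was the highest of the treated libraries in 6 of the 6 genes, and it exceeded every SHR library in Mt-co2 and Mt-co3.

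Mt-atp6 stood at 1099, 1426 and 1825 FPKM in QDG-treated SHR, against 1422, 1575 and 1904 FPKM in SHR, with an interval of the fold from 0.667 to 1.12. Mt-atp8 stood at 612, 859 and 978 FPKM in QDG-treated SHR, against 799, 892 and 1007 FPKM in SHR, with an interval from 0.688 to 1.12. As for the other 4 genes, the lowest treated levels of both ATP synthase genes were those of QDG replicates 5 and 6. Their ratio, Mt-atp6 over Mt-atp8, was 1.79 ± 0.159 in QDG-treated SHR and 1.81 ± 0.170 in SHR (SD, n = 6 per group; p = 0.773 by exact permutation, adjusted p = 0.828). The largest of the 5 log2 differences between ratios was that of Mt-co2 to Mt-co1, at 0.263 ± 0.0164 in QDG-treated SHR and 0.245 ± 0.0123 in SHR (SD, n = 6 per group; p = 0.0584 by exact permutation, adjusted p = 0.125).

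As shares, Mt-co1 held 3.91% ± 0.517 of summed FPKM in QDG-treated SHR and 4.68% ± 0.550 in SHR (SD, n = 6 per group; p = 0.0455 by exact permutation, adjusted p = 0.567). Mt-cyb held 1.15% ± 0.163 in QDG-treated SHR and 1.35% ± 0.176 in SHR (SD, n = 6 per group; p = 0.0693 by exact permutation, adjusted p = 0.608). The other 4 genes had exact permutation p from 0.0714 to 0.184. The share test called 0% of all genes here. Its smallest possible p is 0.00216, which after adjustment over 17397 genes passes only where many genes reach it together. The 0 calls among the 6 genes therefore say little about these genes.

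**Figure D5:**
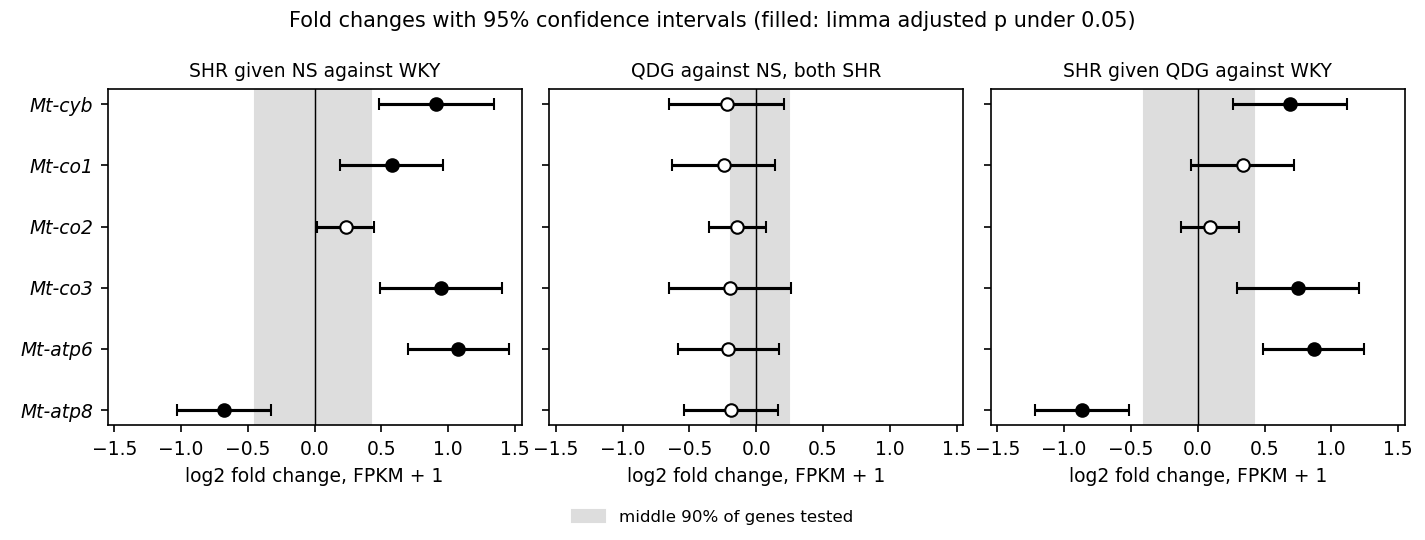
Points give the log2 fold change of FPKM + 1 for each gene (horizontal axis) with its 95% confidence interval, for SHR against WKY, QDG-treated SHR against SHR and QDG-treated SHR against WKY. The intervals use 1 error per gene from the fit over 18 libraries. Filled points passed limma's adjusted p under 0.05, 5 in the first panel, 0 in the second and 4 in the third, and the grey band holds the middle 90% of genes tested.

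The third comparison set QDG-treated SHR against WKY, and shares its libraries with the other 2 comparisons. Here 3 of the 6 genes rose (Mt-cyb, Mt-co3 and Mt-atp6) and Mt-atp8 fell, while Mt-co1 and Mt-co2 did not pass. Of all genes tested limma called 20.9%, 11.7% higher and 9.2% lower in QDG-treated SHR. The median log2 fold change was 0.51 over the 6 genes and 0.01 over all genes tested. FPKM did not overlap for Mt-cyb, Mt-co3 and Mt-atp6, all higher in QDG-treated SHR, against 10.4% of all genes tested (5.83% higher and 4.59% lower).

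Mt-atp6 had lowest, median and highest levels of 1099, 1426 and 1825 FPKM in QDG-treated SHR, against 438, 891 and 1052 FPKM in WKY. Its log2 fold change was 0.87 (SE 0.18; adjusted p = 0.00161 by limma), or 0.56 without WKY replicates 1 and 5 (limma adjusted p = 0.00163). Mt-atp8 had levels of 612, 859 and 978 FPKM in QDG-treated SHR, against 867, 1553 and 2054 FPKM in WKY. The groups overlapped through WKY replicate 5, and the log2 fold change was -0.87 (SE 0.17; adjusted p = 0.000875 by limma), or -1.11 without WKY replicates 1 and 5 (limma adjusted p = 9.7e-06). Over 32 alternatives the adjusted p ran from 0.000274 to 0.00908 for Mt-atp6 and from 9.7e-06 to 0.00642 for Mt-atp8. The ratio of Mt-atp6 to Mt-atp8 was 1.79 ± 0.159 in QDG-treated SHR and 0.536 ± 0.0446 in WKY (SD, n = 6 per group), a log2 difference of 1.74 (p = 0.00216 by exact permutation, adjusted p = 0.00812).

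Mt-cyb rose by 0.69 on the log2 scale (SE 0.20; adjusted p = 0.0203 by limma) and Mt-co3 by 0.75 (SE 0.22; adjusted p = 0.0190 by limma). The lowest treated levels were 6055 FPKM of Mt-cyb and 7275 FPKM of Mt-co3, just above the highest WKY levels of 5856 and 7209.6 FPKM. Without WKY replicates 1 and 5 the log2 fold changes were 0.36 for Mt-cyb (limma adjusted p = 0.0239) and 0.38 for Mt-co3 (limma adjusted p = 0.0458). When the 12 libraries compared were fitted alone, the limma adjusted p was 0.0543 for Mt-cyb and 0.0537 for Mt-co3. Over 32 alternatives it ran from 0.00362 to 0.0543 for Mt-cyb and from 0.00344 to 0.0695 for Mt-co3.

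Mt-co1 had a log2 fold change of 0.34 (SE 0.18; adjusted p = 0.224 by limma), with 20806 to 29068 FPKM in QDG-treated SHR and 9549 to 25955 FPKM in WKY. For Mt-co2 it was 0.09 (SE 0.10; adjusted p = 0.593 by limma), with 5778 to 7902 FPKM in QDG-treated SHR and 4504 to 7211 FPKM in WKY. Both genes overlapped between the groups. The Mt-co1 value was 0.14 without WKY replicate 5, 0.04 without WKY replicates 1 and 5, 0.16 with sample weights and 0.15 after quantile normalization. For Mt-co2 it was 0.01 without WKY replicate 5, 0.05 without WKY replicate 1, 0.15 without WKY replicate 3 and 0.03 without QDG replicate 3. The sign for Mt-co2 turned with sample weights and without WKY replicates 1 and 5.

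By share, the permutation test of QDG-treated SHR against WKY called 13.2% of all genes, 7.59% higher and 5.6% lower, and 3 of the 6 genes. Mt-atp6 held 0.226% ± 0.0356 in QDG-treated SHR and 0.129% ± 0.0414 in WKY (SD, n = 6 per group; exact permutation adjusted p = 0.0251). Without WKY replicates 1 and 5 its exact permutation adjusted p was 0.0728, within a range from 0.0243 to 0.147 over 17 alternatives. The adjusted p was 0.0492 for Mt-cyb and for Mt-co3. It exceeded 0.05 in 12 of 12 tests that left out 1 library for Mt-co3, and in 11 of 12 for Mt-cyb, the exception being WKY replicate 2. Over 17 alternatives it ran from 0.0284 to 0.148 for Mt-cyb and from 0.0284 to 0.160 for Mt-co3. Mt-atp8 held 0.128% ± 0.0245 in QDG-treated SHR and 0.239% ± 0.0722 in WKY (SD, n = 6 per group; p = 0.0108 by exact permutation, adjusted p = 0.0689). It passed without WKY replicate 5 (exact permutation adjusted p = 0.0316) and without WKY replicates 1 and 5 (adjusted p = 0.0493), within a range from 0.0284 to 0.147 over 17 alternatives.

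Within a group the 6 genes moved together from library to library. Over the 18 libraries, deviations of log2(FPKM + 1) from the group means correlated at 0.904 to 0.995 between pairs of the 5 genes other than Mt-atp8, and at 0.892 to 0.927 between Mt-atp8 and each of them. The levels themselves correlated at 0.823 to 0.985 between the 5 genes, and at -0.304 to 0.221 between Mt-atp8 and each of them. Mt-atp8 thus followed the others inside the groups and departed from them across groups. These correlations describe libraries in which all genes share 1 scaling factor.

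Inside single groups of 6 libraries, Pearson's r of the other genes with Mt-co1 ran from 0.876 to 0.987 in QDG-treated SHR, from 0.750 to 0.981 in SHR and from 0.929 to 0.997 in WKY. Exact permutation p ran from 0.00139 to 0.0778, and 14 of the 15 relations passed after adjustment over the 15, all but Mt-atp6 in SHR (exact permutation adjusted p = 0.0778). Spearman's rho ran from 0.771 to 1, with exact permutation p from 0.00278 to 0.103, and 7 of 15 passed after adjustment. Without the 2 libraries farthest from the median of Mt-co1, which in WKY are replicates 1 and 5, r in WKY was 0.298 for Mt-co2, 0.524 for Mt-co3, 0.486 for Mt-atp6 and 0.517 for Mt-atp8, and 0.956 for Mt-cyb. In SHR it then ran from 0.348 for Mt-atp8 to 0.987 for Mt-atp6. The high r of Mt-co2, Mt-co3, Mt-atp6 and Mt-atp8 with Mt-co1 in WKY, and of Mt-atp8 in SHR, was thus not seen without the 2 farthest libraries of that group. Leaving them out narrows the range of Mt-co1, which can lower r by itself. Whether the relations rest on those libraries was not tested.

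Among the other genes tested, the one whose log2(FPKM + 1) over the 18 libraries was most like Mt-cyb, Mt-co1, Mt-co2 and Mt-co3 was ENSRNOG00000029707, with r of 0.982, 0.975, 0.928 and 0.970. It averaged 2012 FPKM in QDG-treated SHR, 2397 FPKM in SHR and 1593 FPKM in WKY. Most like Mt-atp6 was ENSRNOG00000030644, with r of 0.992 and averages of 3984 FPKM in QDG-treated SHR, 4800.4 FPKM in SHR and 2049 FPKM in WKY. Most like Mt-atp8 were ENSRNOG00000016905 (r = 0.945), which averaged 8.80 FPKM in QDG-treated SHR, 8.93 FPKM in SHR and 12.6 FPKM in WKY, and the NONCODE entry NONRATG026566.1 (r = 0.941), which averaged 0.578 FPKM in QDG-treated SHR, 0.616 FPKM in SHR and 2.05 FPKM in WKY. The averages of NONRATG026566.1 in QDG-treated SHR and SHR lay below the filter of 1 FPKM, so it may have been kept through its WKY levels. Its r may then largely restate the difference between the strains. The closest genes of the 6, at most 2 each, came to 7 identifiers, 6 of Ensembl and 1 of NONCODE. With group means removed they came to 4 identifiers, all of Ensembl. Mt-atp8 was then most like ENSRNOG00000031033 (r = 0.952), which averaged 4620 FPKM in QDG-treated SHR, 5385 FPKM in SHR and 2101 FPKM in WKY.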

How the data were processed

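Per the labels' protocols, total RNA from heart tissue (1 µg per library) was depleted of ribosomal RNA and made into libraries with a NEB kit for Illumina. The deposited values, 1 column per library, were read as FPKM normalized by the authors, since the file headers name no unit. The submitters' processing notes name limma. The sources used here state no aligner, counter, build, annotation or strand setting. The reference table of 47357 entries (assembly GRCr8) holds 0 Ensembl identifiers and 0 mitochondrial entries, so 0 identifiers were matched to a name. The names of the 6 genes came with their identifiers, and 8 gene lists, the marker lists and sequences were not used.

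The 17397 genes that reached 1 FPKM in 6 or more libraries were tested, 6 of the 6 genes described among them. A model of log2(FPKM + 1) with 1 mean per group over 18 libraries was fitted with limma (version 3.58.1, R 4.3.3, statmod 1.5.0), using trended and robust moderation. Tests were two-sided and fold changes are on that scale. Shares and ratios were tested by exact permutation in Python 3.11.15, checked against scipy 1.17.1. Both kinds of test were tried on simulated data. The genes described and the lists were chosen with earlier results of these data known. Named genes were the 6 and, for each, the other gene of highest Pearson r. For Mt-atp8 these were 2 by level and 1 with group means removed. Relative depth is the commonest ratio to WKY replicate 1 among genes with a mean under 0.3 FPKM. Alternatives were other pseudocounts, filters, scalings, weights, a replicate block, the 12 compared libraries alone, other denominators of the share and libraries left out. The removal of WKY replicates 1 and 5 together and shares of the sum over other genes were chosen after seeing the data.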

Additional observations from a re-analysis of the deposited data

Results flagged for a closer look

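In 4 of 51 groups of 6 values examined (levels, shares and ratios of the 6 genes), 1 library stood far from the other 5, where chance gives a share of about 0.05. QDG replicate 3 had 7902 FPKM of Mt-co2, against 5778 to 6449 in the other QDG libraries. The same library had 12576 FPKM of Mt-co3, against 7275 to 8810.0 in the others. Without QDG replicate 3, the log2 fold changes of QDG-treated SHR against SHR were -0.20 for Mt-co2 and -0.30 for Mt-co3, and neither passed the limma test. WKY replicate 5 had a log2 ratio of Mt-co2 to Mt-co1 of -1.08, against -2.02 to -1.70 in the other WKY libraries. SHR replicate 2 had a log2 ratio of Mt-cyb to Mt-co3 of -0.14, against -0.29 to -0.26 in the other SHR libraries.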

How the results depend on the processing

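Of 570 alternative log2 fold changes of the 6 genes, 556 kept their direction and side of the threshold, 11 lost the call, 1 gained it and 2 reversed. The reversals were Mt-co2 in QDG-treated SHR against WKY, at -0.0145 with sample weights and -0.0580 without WKY replicates 1 and 5. Limma called 5 of the 6 genes for SHR against WKY (4 to 5 with 1 library left out), 0 for QDG-treated SHR against SHR (0 in each of 31 alternatives) and 4 for QDG-treated SHR against WKY (4 with any 1 library left out, 2 with the 12 compared libraries alone). Mt-co1 in SHR against WKY was at 0.15 (limma adjusted p = 0.649) after quantile normalization and at limma adjusted p = 0.0534 when rescaled without the 20 most abundant genes. Over all genes, the 51 limma calls for QDG-treated SHR against SHR became 30 with no filter, 77 with median centring, 79 with quantile normalization, 23 after rescaling to a common sum, 17 after rescaling to the sum without the 6 genes, 104 with sample weights and 29 to 69 with 1 library left out. The cause was not tested.

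By share, 3 of 6 genes passed for SHR against WKY (3 to 4 with 1 library left out) and 3 for QDG-treated SHR against WKY (1 to 2 with 1 library left out, 1 with the 20 most abundant genes left out of the sum and 1 without WKY replicates 1 and 5). Mt-co2 in QDG-treated SHR against WKY was at -0.0544 percentage points without WKY replicates 1 and 5, and at -0.00447 to 0.0953 with 1 library left out. As shares of the sum over the 6 genes, 5 of 6 genes and 9577 of all genes (3219 before) passed for SHR against WKY. On that scale Mt-co1 and Mt-co2 turned to -0.990 and -3.90 for SHR against WKY and to -1.91 and -3.23 for QDG-treated SHR against WKY, and for QDG-treated SHR against SHR Mt-co2, Mt-co3, Mt-atp6 and Mt-atp8 turned to 0.668, 0.276, 0.0125 and 0.0351.

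With 1 library left out, 2 to 4 ratios passed for SHR against WKY, and the range was 2 to 3 for QDG-treated SHR against WKY. Small log2 differences of ratios changed sign with 1 library left out. Mt-cyb over Mt-co3 ran from -0.0599 to 0.00502 for SHR against WKY and from -0.0470 to 0.0174 for QDG-treated SHR against SHR. For QDG-treated SHR against SHR, Mt-co3 over Mt-atp6 ran from -0.0201 to 0.05001, Mt-atp6 over Mt-atp8 from -0.0630 to 0.0237 and Mt-atp8 over Mt-co2 from -0.0902 to 0.00296.

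Over all genes tested, deviations of same-numbered libraries correlated at -0.05 to 0.16 (SHR and WKY), -0.06 to 0.13 (QDG and SHR) and -0.04 to 0.19 (QDG and WKY), and 5 of 18 libraries correlated best with their own number, so the numbers were not taken as pairs. Replicate 5 had the highest of these correlations in each pair of groups (0.158, 0.126 and 0.188), and for the 6 genes it was the lowest library of SHR and of WKY and the lowest or second lowest of QDG. With a replicate block limma called 6 of the 6 genes for SHR against WKY, Mt-co2 among them (adjusted p = 0.0256), 0 for QDG-treated SHR against SHR and 4 for QDG-treated SHR against WKY. Shares and ratios with the block passed in 0 cases in either comparison with WKY. The smallest p that 6 pairs can give is 0.0312, which after adjustment passes only where many tests reach it together. This says nothing of the stability of the shares and little of that of the ratios. Absolute depth is unknown, and the size of counting error with it.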
